A study of Saccharomyces cerevisiae with 12 samples.

Results

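The regions described here are the subtelomeres of the 11 larger yeast chromosomes II, IV, V, VII, VIII, X, XI, XIII, XIV, XV and XVI, followed as DNA copy signal through replicative ageing. They were chosen by position alone, as the windows whose midpoint lay within 50 kb of either end of the chromosome. This gave 226 of the 2441 windows in the deposited table, at 22 chromosome ends, and 1727 windows farther from both ends of the same chromosomes, called interior windows below, served as the reference. The study resequenced diploid mother enrichment program (MEP) cells of Saccharomyces cerevisiae, in which a daughter-specific SCW11 promoter drives an estradiol-dependent Cre recombinase that disrupts the essential genes UBC9 and CDC20 in newborn daughters, so that only mothers keep dividing. Homozygous spt3, rad52 and sac3 deletion mutants (each replaced with TRP1) were set against the wild type, each as 1 log phase culture and as mothers purified after 24 h and 48 h of ageing in YPD medium, which gives 12 libraries with no replicates.

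All 4 genotypes, the wild type included, are MATa/MATα diploids that carry ade2::hisG, his3, leu2, ura3Δ0, trp1Δ63, heterozygous lys2 and met15Δ::ADE2, and the HO gene replaced by the Cre construct. Spt3 is a subunit of the transcriptional coactivator SAGA, Sac3 is the scaffold of TREX-2, which works at the nuclear pore, and Rad52 is required for homologous recombination. In the sac3 and rad52 cultures β-estradiol was added later than in the wild type and spt3 cultures. With a single library for every genotype and time, a value of one genotype has no replicate check, so the tests below address what the 4 genotypes had in common.

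Yeast chromosomes end in short TG-rich repeats made by telomerase, which on the strand that runs from the tip inwards read as A and C. Behind them lies an X element at every end and, at some ends, a Y′ element that carries a YRF1 helicase gene. Subtelomeres hold fewer genes than the interior, many of them of families repeated from end to end, they are bound by silencing proteins, and they replicate late in S phase. In the RefSeq annotation of the R64 assembly, 13 of the 22 ends carried a Y′ element and 9 an X element only, in telomeric regions of 781 to 7767 bases.

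The sequence of the outermost 60 bases is given for the ends with the 3 lowest and the 3 highest changes with age, as in the RefSeq R64 assembly, read from the tip inwards, with an unbroken run of A and C in capitals. They show what the outermost windows cover, and which assembled ends stop short of the telomeric repeats.
XIII right tip, chrXIII:924372-924431, minus strand: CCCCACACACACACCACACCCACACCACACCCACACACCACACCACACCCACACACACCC
XIV right tip, chrXIV:784274-784333, minus strand: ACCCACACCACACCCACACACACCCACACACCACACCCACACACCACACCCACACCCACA
XI right tip, chrXI:666757-666816, minus strand: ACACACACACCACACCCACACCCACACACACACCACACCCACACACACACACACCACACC
XVI left tip, chrXVI:1-60, plus strand: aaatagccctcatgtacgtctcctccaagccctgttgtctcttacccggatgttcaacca
IV right tip, chrIV:1531874-1531933, minus strand: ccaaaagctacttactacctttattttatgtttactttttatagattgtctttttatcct
IV left tip, chrIV:1-60, plus strand: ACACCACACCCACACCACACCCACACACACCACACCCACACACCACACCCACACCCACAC

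A run of at least 12 bases of A and C lay in the outermost 60 bases of 16 of the 22 ends on the strand read from the tip, and in 3.17% of 60-base interior segments on either strand. The assembled tips of XVI left and IV right lacked it. Next to the tip, the X element's combinatorial repeats hold the letters CCCTAA, the complement of TTAGGG that the factor Tbf1 is known to bind, and a stretch of them is given for the 2 ends with the lowest changes, with CCCTAA in capitals.
XIII right combinatorial repeat, chrXIII:924157-924306, minus strand: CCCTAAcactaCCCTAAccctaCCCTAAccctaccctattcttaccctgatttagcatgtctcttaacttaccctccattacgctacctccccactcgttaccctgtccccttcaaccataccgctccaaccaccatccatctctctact
XIV right combinatorial repeat, chrXIV:783886-784035, minus strand: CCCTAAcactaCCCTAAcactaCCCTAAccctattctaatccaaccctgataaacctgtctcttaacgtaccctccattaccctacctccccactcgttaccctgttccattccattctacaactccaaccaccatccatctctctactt

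Counting both strands, TTAGGG or CCCTAA was found in 21 of the 22 annotated telomeric regions, at 0.652 matches per kb, against 0.237 per kb of interior sequence, where 21.0% of 1-kb segments held it.

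Each window was 25 kb long, and windows started every 5 kb, so that neighbours share most of their reads and are not independent. Left ends held 8 windows each, none with a midpoint nearer than 12.5 kb, whereas right ends held 12 or 13, since windows cut short by the chromosome end were kept there; 55 windows were shorter than 25 kb, the shortest 751 bases. Over 5% of the 75-base sequences were repeated elsewhere in the genome in 110 of the 226 subtelomeric windows, against 223 of the 1727 interior windows, and how reads with several matches were placed is not given in the sources used here. Ty or LTR sequence touched 49 subtelomeric windows. Median GC content was 38.5% in subtelomeric and 38.1% in interior windows, and full-length windows held a median of 12 and 14 protein-coding genes.

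The libraries held 5261601 to 12147987 reads in non-overlapping windows, as recovered from the steps of the deposited values, at least 99.9% of which were whole multiples of one step within 0.1. The median interior window held 7370 to 21451 reads, for a counting error of 0.683% to 1.16%. At log phase, the windows that hold the deleted gene were lower in their own mutant than the mean of the other genotypes, by 5.81% for SPT3, 3.42% for RAD52 and 14.6% for SAC3, where the gene takes 4.06%, 5.66% and 15.6% of a window. Levels below are signal per kb divided by the median of the interior windows in the same library, so that 1 is the interior level.

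Taken as 1 median, young subtelomeres were close to the interior in all genotypes, but their level varied with distance from the end. Within 5 kb of the end, at right ends only, it was 1.25 in spt3, 1.16 in rad52, 1.32 in sac3 and 1.30 in the wild type at log phase. Between 25 and 30 kb it was 0.906, 0.930, 0.942 and 0.920 in the same order. The median level over the 226 windows at log phase was 0.969 in the spt3 mutant, 0.983 in rad52, 1.01 in sac3 and 0.992 in the wild type. The order of the ends was alike in these libraries. Across the 22 ends, the log-phase level in the wild type correlated with that in spt3, rad52 and sac3 at Pearson's r of 0.986, 0.976 and 0.959. This is a description over ends that share their base composition, their repeats and their libraries. XIV right was the lowest end at log phase, with levels of 0.683 to 0.745 over the genotypes, and IV right the highest, at 1.35 to 1.42.

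With age, subtelomeric DNA was lower than interior DNA in some libraries and close to it in others. The median fold of the 226 windows, aged over log phase of the same genotype, was 0.802 and 0.875 for the spt3 mutant (24 h and 48 h), 1.02 and 0.957 in rad52, 1.01 and 0.700 in sac3, and 1.01 and 0.995 in the wild type. The 2 aged spt3 libraries and the sac3 library at 48 h stood apart from the other aged libraries. The SD of the log2 change over single interior windows was 0.0737 to 0.211 across the aged libraries, and windows around the centromeres had median folds of 0.954 to 1.02.

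Single windows were then counted that were under 0.8-fold. In the spt3 mutant 110 of 226 subtelomeric windows (48.7%) were under this limit at 24 h, beside 6.77% of all nuclear windows, and 74 (32.7%) at 48 h, beside 4.13%. In the rad52 mutant the count was 0 of 226 at 24 h, beside 0.0413% of all nuclear windows, and 8 (3.54%) at 48 h, beside 0.413%. The sac3 mutant had 0 of 226 at 24 h, beside 0% of all nuclear windows, and 146 (64.6%) at 48 h, beside 8.71%. In the wild type 0 of 226 windows were under 0.8-fold at 24 h and at 48 h, beside 0% of all nuclear windows each time. Among the 1727 interior windows, 1 was under the limit in the spt3 mutant at 24 h and 0 in each of the other aged libraries.

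Averaged over the 4 genotypes, the change was -0.14 ± 0.14 on the log2 scale (SD over 4 genotypes), a mean fold of 0.908. This change is taken between medians of the region, unlike the median of window folds above. It was below 0 in 6 of 8 aged libraries, but by only -0.00854 in sac3 at 24 h and -0.00176 in the wild type at 48 h. A two-sided exact permutation of which library of each genotype is the log phase one gave p = 0.259. The smallest p that these 81 relabellings allow is 0.0123.

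In the spt3 mutant, and in rad52 and sac3 at 48 h, the folds were graded by distance from the end. Windows with a midpoint within 5 kb of the end had a median fold of 0.640 and 0.769 in the spt3 mutant at 24 h and 48 h, 1.09 and 0.875 in rad52, 1.11 and 0.480 in sac3, and 1.16 and 1.29 in the wild type. Between 20 and 25 kb the folds were 0.767 and 0.829 in spt3, 1.00 and 0.930 in rad52, 0.962 and 0.641 in sac3, and 0.985 and 0.929 in the wild type. Between 45 and 50 kb they were 0.979 and 1.00, 1.03 and 1.03, 1.04 and 0.936, and 0.992 and 1.03 in the same order of genotypes. The spt3 values and the 48 h values of rad52 and sac3 approached 1 over the 50 kb. The wild type at both times, and rad52 and sac3 at 24 h, were highest within 5 kb of the end. All windows within 10 kb lay at right ends, 6 of which carry a Y′ element. In the bins described below, wild-type median levels at log phase, 24 h and 48 h were 1.56, 1.93 and 2.19 for the Y′ element. They were 1.07, 1.09 and 1.04 for the terminal bins of the 5 right ends with no Y′ element. Just outside the 50-kb limit, between 50 and 55 kb, the folds lay between 0.964 and 1.05.

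**Figure D1:**
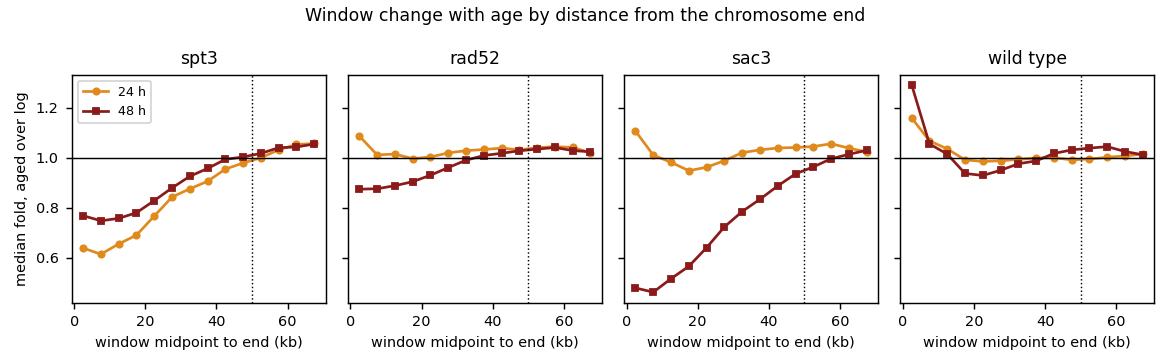
Median fold of 25-kb windows, aged over log phase of the same genotype and relative to interior windows, against the distance of the window midpoint from the chromosome end in kb, 1 panel for each genotype. Each point is 1 library at 24 h or 48 h and the dotted line is the 50-kb limit. The folds of spt3 at both times and of sac3 at 48 h are lowest within 10 kb of the end. Those of the wild type, at 1.16 and 1.29, and of rad52 and sac3 at 24 h are highest in the outermost 5 kb. All windows within 10 kb lie at right ends, 6 of which carry a Y′ element.

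The change of windows within 25 kb minus that of windows between 25 and 50 kb was -0.22 ± 0.20 on the log2 scale (SD over 4 genotypes), a fold of 0.859, and the difference was below 0 in 6 of 8 aged libraries. The exact two-sided permutation gave p = 0.173. Without windows over 5% repeated the value was -0.25, with an exact permutation p = 0.0247.

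Left and right ends were alike where windows of the same length were compared. Over the 83 full-length windows of right ends the median fold was 0.855 and 0.930 in spt3 at 24 h and 48 h, and 1.01 and 0.791 in sac3, against 0.850 and 0.911 in spt3 and 0.999 and 0.767 in sac3 over the 88 of left ends. The 13 ends with a Y′ element had median folds of 0.795 and 0.901 in spt3, 1.03 and 0.714 in sac3 and 1.01 and 1.02 in the wild type, against 0.727 and 0.754, 0.975 and 0.646, and 0.961 and 0.906 at the 9 ends with an X element only. The ranges of the 2 kinds of end overlapped in every aged library, and the difference was not tested.

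The ends differed widely among themselves in their change. In the spt3 mutant 20 of 22 ends were under 1-fold at 24 h and 19 at 48 h, in rad52 6 and 20, in sac3 11 and 20, and in the wild type 12 and 13. The share of interior or of all nuclear windows under 1-fold was not counted, so these counts have no background beside them. Median folds of the interior of single chromosomes ran from 0.954 (VIII, wild type at 24 h) to 1.12 (XVI, sac3 at 48 h). The fold of single ends ran over 0.576 to 1.29 and 0.645 to 1.22 in spt3, 0.957 to 1.13 and 0.799 to 1.07 in rad52, 0.867 to 1.08 and 0.464 to 1.31 in sac3, and 0.936 to 1.22 and 0.885 to 1.25 in the wild type. After Benjamini-Hochberg adjustment over the 22 ends, 0 ends passed the exact permutation test at 0.05, with a smallest adjusted p of 0.272. VII left and IV right were the 2 ends with an unadjusted exact p under 0.05, at 0.0123 and 0.0370.

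**Figure D2:**
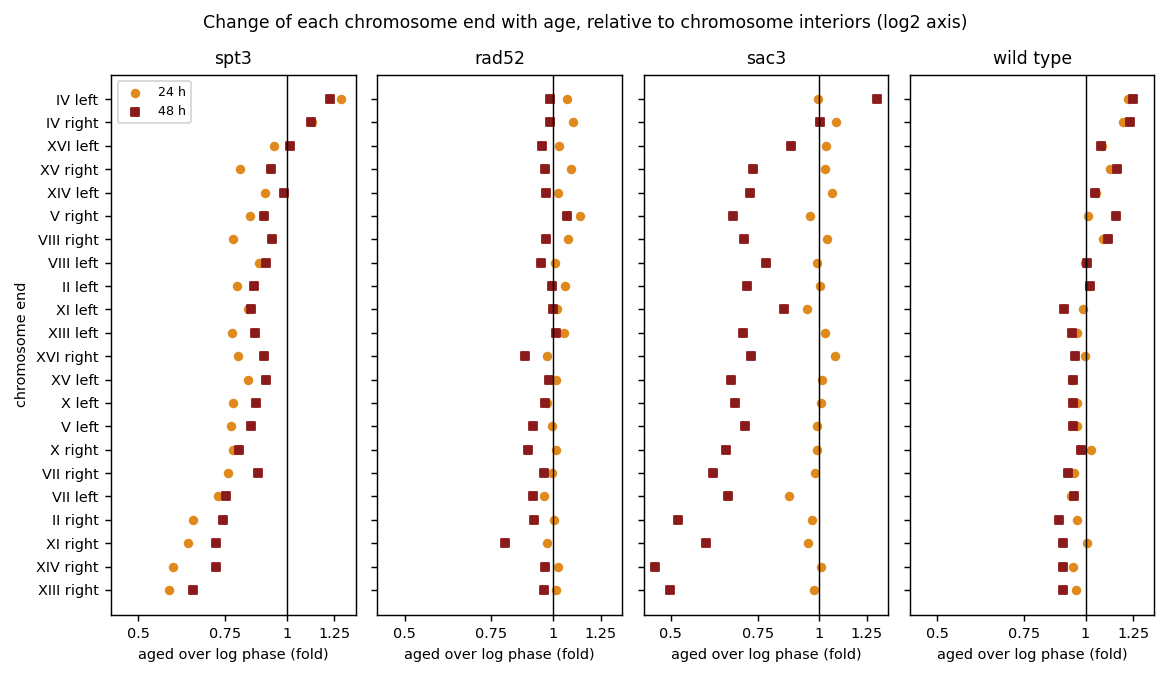
Fold of each of the 22 chromosome ends, aged over log phase of the same genotype and relative to interior windows, on a log2 axis, 1 panel for each genotype, with 24 h as circles and 48 h as squares. Ends are ordered by their mean change; IV left and IV right lie at or above 1 in most libraries, and XIII right and XIV right reach 0.497 and 0.464 in the sac3 mutant at 48 h.

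XIII right runs from PAU19, of the seripauperin cell wall family, inwards to ADE4 of purine synthesis, and had the lowest mean change, -0.34 ± 0.33 on the log2 scale (SD over 4 genotypes). Its level was 0.830, 0.479 and 0.536 in the spt3 mutant at log phase, 24 h and 48 h, 0.875, 0.886 and 0.838 in rad52, 0.865, 0.844 and 0.430 in sac3, and 0.894, 0.855 and 0.805 in the wild type. The 48 h sac3 library and both aged spt3 libraries were the low ones.

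XIV right, from PAU6 inwards to the transporter gene HOL1, had a mean change of -0.32 ± 0.31. Here the level was 0.705, 0.415 and 0.506 in the spt3 mutant at log phase, 24 h and 48 h, 0.730, 0.748 and 0.703 in rad52, 0.745, 0.752 and 0.346 in sac3, and 0.683, 0.645 and 0.614 in the wild type. It was already the lowest end at log phase, and the same 3 aged libraries were lowest.

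XI right, from the glutathione exchanger gene GEX2 inwards to the lipase gene TGL4, had a mean change of -0.31 ± 0.23. The level at this end was 0.998, 0.628 and 0.716 in the spt3 mutant at log phase, 24 h and 48 h, 1.04, 1.01 and 0.831 in rad52, 1.01, 0.960 and 0.597 in sac3, and 1.02, 1.03 and 0.917 in the wild type. Its 48 h rad52 fold, 0.799, was the lowest of any end in that library.

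II right carries the MAL3 maltose cluster and had folds of 0.645 and 0.743 in the spt3 mutant at 24 h and 48 h, 1.01 and 0.914 in rad52, 0.967 and 0.518 in sac3, and 0.961 and 0.885 in the wild type. At VII left, with COS12 and PAU11, the level was 0.851, 0.618 and 0.641 in the spt3 mutant at log phase, 24 h and 48 h, 0.898, 0.860 and 0.817 in rad52, 0.877, 0.760 and 0.574 in sac3, and 0.883, 0.826 and 0.838 in the wild type. VII left was lower with age in 8 of 8 aged libraries, with a mean change of -0.26 ± 0.19 (adjusted exact p = 0.272).

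VII right, with the MAL1 cluster, had folds of 0.760 and 0.873 in the spt3 mutant at 24 h and 48 h, 0.994 and 0.958 in rad52, 0.980 and 0.608 in sac3, and 0.949 and 0.923 in the wild type. V left, with the hexose transporter gene HXT13, had folds of 0.771 and 0.846 in the spt3 mutant at 24 h and 48 h, 0.994 and 0.910 in rad52, 0.991 and 0.708 in sac3, and 0.961 and 0.942 in the wild type. Both were below 1 in 8 of 8 aged libraries.

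X right showed folds of 0.779 and 0.799 in the spt3 mutant at 24 h and 48 h, 1.01 and 0.891 in rad52, 0.988 and 0.646 in sac3, and 1.02 and 0.980 in the wild type. X left, with HXT8 and HXT9, showed folds of 0.779 and 0.865 in the spt3 mutant at 24 h and 48 h, 0.973 and 0.962 in rad52, 1.01 and 0.674 in sac3, and 0.963 and 0.943 in the wild type. At XV left the folds were 0.835 and 0.906 in the spt3 mutant at 24 h and 48 h, 1.02 and 0.982 in rad52, 1.01 and 0.664 in sac3, and 0.938 and 0.945 in the wild type. In these 3 ends the 48 h sac3 library was the lowest.

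XVI right had folds of 0.795 and 0.901 in the spt3 mutant at 24 h and 48 h, 0.974 and 0.877 in rad52, 1.07 and 0.726 in sac3, and 0.996 and 0.954 in the wild type. XIII left, with COS3, had folds of 0.776 and 0.864 in the spt3 mutant at 24 h and 48 h, 1.05 and 1.01 in rad52, 1.03 and 0.700 in sac3, and 0.963 and 0.938 in the wild type. For XI left, with the ferric reductase gene FRE2, the folds were 0.835 and 0.847 in the spt3 mutant at 24 h and 48 h, 1.02 and 0.999 in rad52, 0.945 and 0.848 in sac3, and 0.989 and 0.906 in the wild type. XI left was less low than most ends in sac3 at 48 h.

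II left, which holds a Ty2 element at 29644 to 35602 (R64), had folds of 0.794 and 0.859 in the spt3 mutant at 24 h and 48 h, 1.06 and 0.994 in rad52, 1.00 and 0.714 in sac3, and 1.02 and 1.02 in the wild type. VIII left, with the siderophore transporter genes ARN1 and ARN2, had folds of 0.877 and 0.907 in the spt3 mutant at 24 h and 48 h, 1.01 and 0.943 in rad52, 0.989 and 0.781 in sac3, and 1.00 and 1.01 in the wild type. Both were close to 1 in the wild type.

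XIV left, with the SNO2 and SNZ2 genes of vitamin B6 metabolism, gave folds of 0.903 and 0.987 in the spt3 mutant at 24 h and 48 h, 1.03 and 0.968 in rad52, 1.06 and 0.723 in sac3, and 1.05 and 1.05 in the wild type. VIII right, with the flocculin gene FLO5, gave folds of 0.779 and 0.932 in the spt3 mutant at 24 h and 48 h, 1.07 and 0.969 in rad52, 1.04 and 0.704 in sac3, and 1.08 and 1.11 in the wild type. Both lay above 1 in the wild type at both times.

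V right gave folds of 0.844 and 0.898 in the spt3 mutant at 24 h and 48 h, 1.13 and 1.07 in rad52, 0.958 and 0.668 in sac3, and 1.01 and 1.16 in the wild type. At XV right, with iron-uptake genes of the FIT and FRE families, they were 0.804 and 0.930 in the spt3 mutant at 24 h and 48 h, 1.09 and 0.965 in rad52, 1.03 and 0.734 in sac3, and 1.12 and 1.16 in the wild type. These 4 ends were above 1 in the wild type at both times and below 1 in the sac3 mutant at 48 h.

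XVI left, from YRF1-7 inwards to the thiamine gene THI21, had a mean change of -0.00 ± 0.08. Its level was 1.14, 1.07 and 1.16 in the spt3 mutant at log phase, 24 h and 48 h, 1.17, 1.20 and 1.11 in rad52, 1.28, 1.32 and 1.12 in sac3, and 1.14, 1.23 and 1.23 in the wild type. The aged libraries lay on both sides of their log phase libraries.

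IV right, from YRF1-1 inwards to SDH7, an assembly factor of succinate dehydrogenase, had a mean change of 0.14 ± 0.10 on the log2 scale. The level was 1.36, 1.53 and 1.52 in the spt3 mutant at log phase, 24 h and 48 h, 1.35, 1.49 and 1.34 in rad52, 1.35, 1.46 and 1.36 in sac3, and 1.42, 1.69 and 1.74 in the wild type. It was above its log phase library in 7 of 8 aged libraries, with rad52 at 48 h as the exception (adjusted exact p = 0.317).

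IV left, from COS7 inwards to WHI4, which encodes an RNA-binding protein, had the highest mean change, 0.22 ± 0.13. The level was 1.09, 1.40 and 1.33 in the spt3 mutant at log phase, 24 h and 48 h, 1.13, 1.20 and 1.11 in rad52, 1.09, 1.08 and 1.42 in sac3, and 1.12, 1.36 and 1.40 in the wild type. It was above its log phase library in 6 of 8 aged libraries, with rad52 at 48 h and sac3 at 24 h as the exceptions (adjusted exact p = 0.317).

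The change at IV left was uneven along the end. The outermost window, with its midpoint at 12.5 kb, had folds of 0.742 and 0.771 in spt3, 0.950 and 0.836 in rad52, 0.922 and 0.611 in sac3, and 1.05 and 0.967 in the wild type. The window with its midpoint at 47.5 kb had folds of 1.56 and 1.50 in spt3, 1.18 and 1.08 in rad52, 1.13 and 1.64 in sac3, and 1.33 and 1.45 in the wild type, all above 1. The raised stretch went on past the 50-kb limit. HO, the mating-type switching endonuclease gene that is replaced by the Cre construct in all 4 genotypes, lies within it, at chromosome IV 46271 to 48031.

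**Figure D3:**
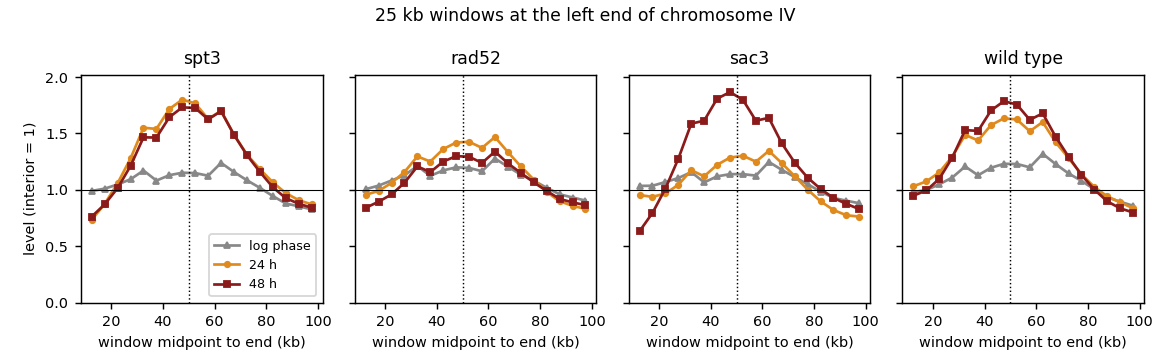
Level of 25-kb windows (interior median = 1) against the distance of the window midpoint from the left end of chromosome IV in kb, 1 panel for each genotype, at log phase, 24 h and 48 h. The dotted line is the 50-kb limit; levels of the aged spt3 and wild-type libraries and of sac3 at 48 h peak next to it, at 1.80 in spt3 at 24 h and 1.87 in sac3 at 48 h, while the outermost window is below its log phase level in 7 of 8 aged libraries.

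Ends that were low in the aged spt3 mutant tended to be low in sac3 at 48 h. Across the 22 ends the spt3 fold at 24 h correlated with the sac3 fold at 48 h at Pearson's r = 0.957 and Spearman's rho = 0.869, and at 0.885 and 0.826 over the 20 ends outside chromosome IV. The rad52 fold at 48 h correlated with the sac3 fold at 48 h at r = 0.263. The wild-type fold at 48 h did so at r = 0.739 and rho = 0.711, and at 0.478 and 0.615 over the 20 ends outside chromosome IV. Ends with a higher wild-type level at log phase tended to have a higher sac3 fold at 48 h (r = 0.601, rho = 0.719, n = 22 ends), and GC content of the ends was nearly unrelated to it (r = -0.11). These are descriptions over ends, which share repeats, base composition and libraries. Over single interior windows, the log2 change rose with GC content in all 8 aged libraries. There r ran from 0.247 in sac3 at 48 h to 0.575 in sac3 at 24 h.

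A model across all 2423 nuclear windows (limma, with genotype as a block and the 24 h and 48 h libraries together against log phase) called few subtelomeric windows. After Benjamini-Hochberg adjustment, 17 of the 226 windows (7.52%) were higher with age, beside 22.5% of all nuclear windows, and 9 (3.98%) were lower, beside 12.1%. At an unadjusted p under 0.05 the counts were 23 higher and 35 lower. Unadjusted calls were not counted over all nuclear windows, so the unadjusted counts in this section have no background share beside them. The SE of the log2 change was larger near the tips. Its median was 0.160 for the 116 windows within 25 kb, whose median change was -0.24. It was 0.0513 for the 110 windows farther in, whose median change was -0.05. This SE includes differences between genotypes in their change and between 24 h and 48 h, so it is not a measurement error alone. The 2 aged libraries of a genotype share its response and are not independent, so that these p-values are not reliable. With the 2 averaged, 11 windows were called higher and 17 lower (19 and 99 at an unadjusted p under 0.05), beside 373 and 153 of all 2423. With only the 24 h or only the 48 h libraries, 0 windows passed limma's adjusted threshold (22 higher and 9 lower at an unadjusted p under 0.05 at 24 h, and 12 and 90 at 48 h). Without the wild type (14 higher and 21 lower unadjusted) or without the spt3 mutant (13 and 7) 0 windows passed it as well. Over all 2423 nuclear windows, 13 passed as higher at 48 h only and 13 without the wild type. The count was 0 at 24 h only and without spt3.

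Of the 17 windows that rose, 4 lay at IV left, 7 at IV right, 2 at VIII left, 3 at XV right and 1 at XVI left. The window at chromosome IV 35001 to 60000 rose most, by 0.42 ± 0.10 (SE) on the log2 scale (limma, adjusted p = 0.0141). All 9 windows that fell were at VII left, with 5, and XI right, with 4. Their changes ran over -0.36 to -0.09, and their midpoints lay 19.3 to 42.5 kb from the end.

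At right ends the nested windows could be subtracted from one another to give 116 bins of up to 5 kb, which separate the Y′ element from the unique sequence behind it. A median 5-kb stretch of interior sequence held 1474 to 4290 reads (counting error 1.53% to 2.60%). The 12 bins that are mostly Y′ element, at 6 right ends, had median levels of 1.52, 0.990 and 1.21 in the spt3 mutant at log phase, 24 h and 48 h, 1.40, 1.57 and 1.29 in rad52, 1.54, 1.77 and 0.766 in sac3, and 1.56, 1.93 and 2.19 in the wild type. At 24 h and 48 h, 12 and 11 of the 12 Y′ bins were under 1-fold in spt3, 0 and 12 in rad52, and 0 and 12 in sac3, against 0 at either time in the wild type. Y′ copies are so alike that reads of one end can be placed at another, and the numbers of Y′ copies in these strains cannot be told apart from their placement. Chromosome XII, whose right end also carries Y′ elements and lies beyond the rDNA, had folds at that end of 0.740 and 0.855 in spt3, 1.28 and 1.17 in rad52, 1.02 and 0.588 in sac3, and 1.14 and 1.34 in the wild type, and its part in the Y′ values was not tested.

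**Figure D4:**
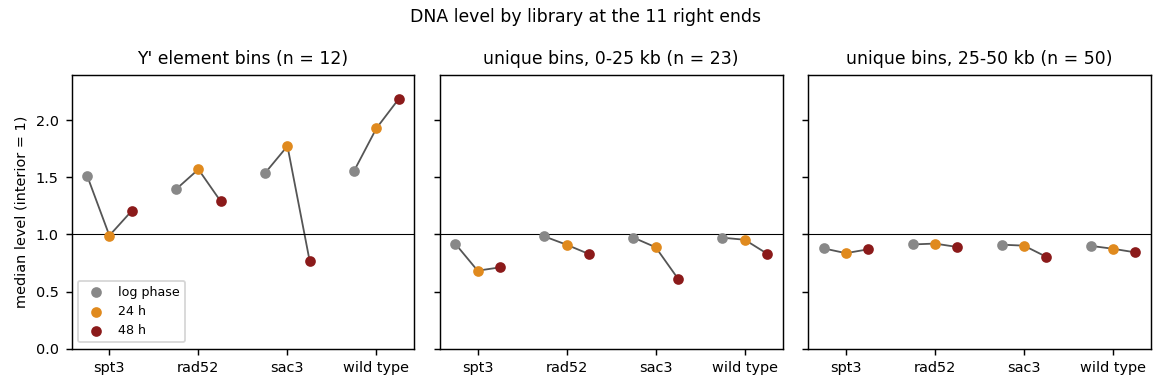
Median level at the 11 right ends (interior median = 1) in each of the 12 libraries, for Y′ element bins, for unique bins within 25 kb of the end and for unique bins at 25 to 50 kb; points are libraries and lines join the 3 times of a genotype. Y′ bins of the wild type are at 2.19 at 48 h while those of sac3 are at 0.766, and the median of the unique outer bins is below log phase in all 8 aged libraries. No unique bin has its midpoint within 10 kb of the end.

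In unique sequence between 10 and 25 kb from the ends, the median level was lower with age in every genotype. The 23 bins within 25 kb of 10 right ends, outside annotated telomeric regions and with under 5% repeated sequence, had median levels of 0.918, 0.683 and 0.712 in spt3 at log phase, 24 h and 48 h, 0.983, 0.910 and 0.829 in rad52, 0.973, 0.888 and 0.614 in sac3, and 0.972, 0.954 and 0.832 in the wild type. The change was -0.27 ± 0.14 on the log2 scale (SD over 4 genotypes), a fold of 0.827, lower in 8 of 8 aged libraries, with an exact two-sided permutation p = 0.0370. The call was lost with both ends of each chromosome (-0.31, exact p = 0.0741), without chromosome IV (-0.32, exact p = 0.0741), and without the wild type, spt3 or rad52 (exact p of 0.0741 to 0.148, where the smallest that 27 relabellings allow is 0.0370). None of the 23 bins had a midpoint within 10 kb of the end. In spt3 20 and 20 of the 23 were under 1-fold at 24 h and 48 h, and in rad52 16 and 22. The counts were 17 and 20 in sac3 and 17 and 17 in the wild type. These bins were defined after the window values had been seen. The change of the Y′ bins minus that of the unique outer bins was 0.16 ± 0.27 (exact p = 0.346).

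The 50 unique bins at 25 to 50 kb had median levels of 0.879, 0.837 and 0.871 in spt3 at log phase, 24 h and 48 h, 0.913, 0.921 and 0.891 in rad52, 0.911, 0.902 and 0.805 in sac3, and 0.900, 0.875 and 0.844 in the wild type. Of these 50, 37 and 30 were under 1-fold in spt3 at 24 h and 48 h, and 13 and 23 in rad52. The counts were 17 and 41 in sac3, and 27 and 27 in the wild type. The terminal bins of the 5 right ends with no Y′ element had median levels of 0.880, 0.550 and 0.595 in spt3, 0.952, 0.999 and 0.790 in rad52, 0.968, 1.01 and 0.396 in sac3, and 1.07, 1.09 and 1.04 in the wild type. At these 5 ends the 48 h sac3 levels, from 0.329 to 0.475, lay below the sac3 log phase levels, from 0.849 to 1.10.

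**Figure D5:**
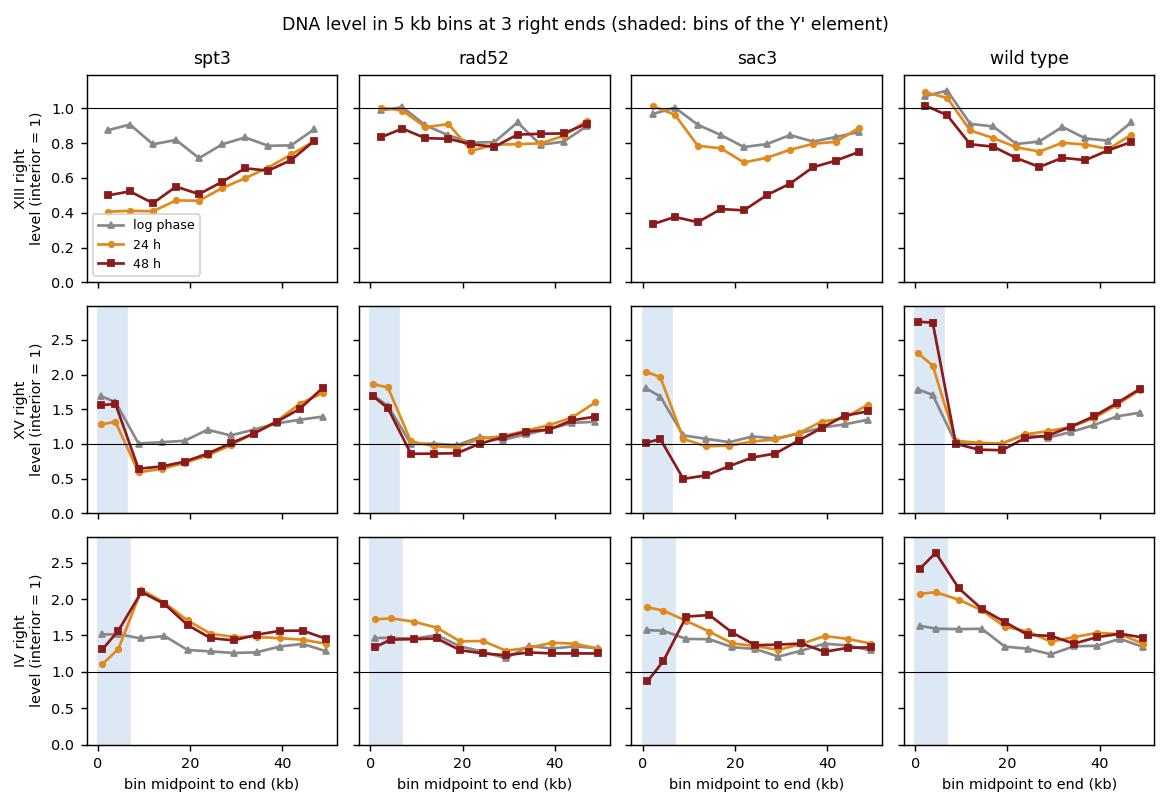
Level of 5-kb bins (interior median = 1) against the distance of the bin midpoint from the end in kb, at XIII right, XV right and IV right, 1 column for each genotype, with log phase, 24 h and 48 h as lines and the bins of the Y′ element shaded. XIII right has no Y′ element and is lowest in spt3 and in sac3 at 48 h; at IV right the bins next to the Y′ element lie above log phase in spt3, while those in the Y′ element itself are mostly below it.

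Some stretches went the other way. At IV right the bin from 1520001 to 1525000, which holds PAU10, had folds of 1.46 and 1.44 in spt3, 1.16 and 0.996 in rad52, 1.17 and 1.21 in sac3, and 1.26 and 1.35 in the wild type. At VIII right the bin from 545001 to 550000 had folds of 1.09 and 1.14 in spt3, 1.27 and 1.21 in rad52, 1.01 and 1.05 in sac3, and 1.24 and 1.45 in the wild type; it is 91.6% repeated and overlaps a Ty1 retrotransposon at 543610 to 549637. The outward neighbour of that bin, from 550001 to 555000, had folds of 0.587 and 0.771 in spt3 and 1.03 and 0.477 in sac3.

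At V right a stretch of unique sequence stood out by genotype. The bin from 545001 to 550000 had folds of 0.876 and 0.938 in the spt3 mutant, 1.42 and 1.41 in rad52, 1.07 and 0.775 in sac3, and 1.09 and 1.39 in the wild type. Its inner neighbour, from 540001 to 545000, had 0.938 and 1.02 in spt3, 1.34 and 1.33 in rad52, 1.04 and 0.829 in sac3, and 1.11 and 1.36 in the wild type. Both aged rad52 libraries and the 48 h wild-type library were high, and the other aged libraries were at 1.11 or below.

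Subtelomeric gene families follow the windows that hold them. From a list of families chosen with earlier results of these data known, 81 genes lay in the windows at 21 ends, 57 of them in over 5% repeated sequence, and each was given the median fold of its windows. In the spt3 mutant 78 of the 81 were under 1-fold at 24 h and 76 at 48 h, in rad52 28 and 75, in sac3 55 and 79, and in the wild type 32 and 48. Their median folds were 0.703 and 0.790 in spt3, 1.01 and 0.894 in rad52, 0.980 and 0.566 in sac3, and 1.02 and 0.967 in the wild type. Over all 226 windows the median folds were 0.802 and 0.875 in spt3, 1.02 and 0.957 in rad52, 1.01 and 0.700 in sac3, and 1.01 and 0.995 in the wild type. Genes that share windows have the same fold, so the 81 are not separate values. The share of all nuclear windows under 1-fold was not counted. A called window that rose held 7 of the 81 genes, PAU10, YRF1-1 and FIT1 at IV right and FIT2, FIT3, FRE3 and FRE5 at XV right. A window that fell held 1, the flocculin gene FLO10 at XI right. Of all nuclear windows, 22.5% and 12.1% were called. A gene counted if any of its windows was called, so the gene counts and these shares of single windows are in different units.

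The MAL and IMA genes, for the uptake and cleavage of maltose and isomaltose, had the lowest family median at 48 h in the sac3 mutant. Their 10 members had median folds of 0.601 and 0.730 in spt3, 1.00 and 0.871 in rad52, 0.982 and 0.472 in sac3, and 0.988 and 0.912 in the wild type. MAL33, the activator of the II right cluster, had folds of 0.537 and 0.654 in spt3, 1.01 and 0.852 in rad52, 0.970 and 0.436 in sac3, and 0.988 and 0.882 in the wild type, and MAL31 beside it shares its windows.

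The 10 COS genes, which encode endosomal membrane proteins of protein sorting, had medians of 0.620 and 0.716 in spt3, 1.01 and 0.867 in rad52, 0.961 and 0.502 in sac3, and 1.01 and 0.928 in the wild type. The 13 PAU genes had 0.646 and 0.746 in spt3, 1.01 and 0.896 in rad52, 0.973 and 0.509 in sac3, and 1.03 and 0.952 in the wild type. PAU10 at IV right was the PAU gene in a window that rose, with folds of 1.18 and 1.22 in spt3, 1.12 and 0.978 in rad52, 1.13 and 1.02 in sac3, and 1.24 and 1.37 in the wild type.

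The 8 HXT hexose transporter genes had medians of 0.754 and 0.833 in spt3, 0.996 and 0.926 in rad52, 0.989 and 0.630 in sac3, and 1.02 and 0.946 in the wild type. The 6 YRF1 genes of the Y′ element had 0.705 and 0.823 in spt3, 1.04 and 0.894 in rad52, 1.04 and 0.558 in sac3, and 1.13 and 1.18 in the wild type, where 0 of 6 were under 1-fold at either time. The 3 FIT genes, for iron retention in the cell wall, had 0.951 and 0.946 in spt3, 1.04 and 0.974 in rad52, 1.02 and 0.915 in sac3, and 1.07 and 1.06 in the wild type. FLO10 had folds of 0.690 and 0.783 in spt3, 0.947 and 0.844 in rad52, 0.904 and 0.629 in sac3, and 0.985 and 0.885 in the wild type.

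The 12 other families, AAD, ARN, ERR, FLO, FRE, HSP32 and HSP33, MPH, PHO12, SNO and SNZ, SOR, THI5 and VTH, had medians of 0.666 to 0.855 in spt3 at 24 h, 0.533 to 0.764 in sac3 at 48 h and 0.940 to 1.14 in the wild type at 48 h.

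The ends of the larger chromosomes were also set against the 83 windows chosen by the same distance on the 4 smallest chromosomes, I, III, VI and IX, whose own median folds were 0.816 and 0.892 in spt3, 1.07 and 0.996 in rad52, 1.01 and 0.738 in sac3, and 1.05 and 1.02 in the wild type. The change of the larger chromosomes minus that of the smallest was -0.02 ± 0.07 on the log2 scale (SD over 4 genotypes), with an exact two-sided permutation p = 0.420. This difference depended on how windows were summarised: it was -0.06 with means in place of medians (exact p = 0.0123, the smallest possible) and 0.0149 without windows over 5% repeated (exact p = 0.753).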

How the data were processed

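Genomic DNA of MEP diploids was sequenced by the authors as 75-base single-end reads. Reads were trimmed with Trim Galore 0.6.6 and mapped with Bowtie 2 to R64-1-1; the submitters' processing notes also name HISAT2 2.1.0. The deposited values are a signal, the reads in 25-kb windows placed every 5 kb in SeqMonk, scaled by a size factor for each library. The methods exclude windows with Ty, LTR, mitochondrial, ENA and CUP1 sequence before normalisation, but such windows are in the table, and the treatment of duplicate reads and of reads with several matches is not given in the sources used here.

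Chromosome names and lengths in the table were checked against the RefSeq R64 assembly before sequence, genes and telomeric regions were taken from it. For each library the median log2 signal per kb of a region was taken minus that of the interior windows; log phase was subtracted from the average of the aged libraries, and a region's change was tested by exact permutation, relabelling which of a genotype's 3 libraries was the log phase one. Windows were tested with limma 3.58.1 (R 4.3.3) on log2(signal + 1), Benjamini-Hochberg adjusted over 2423 nuclear windows. The 5-kb bins were obtained by subtracting nested windows; on simulated reads this was less exact at left ends, which were left out. The permutation test and the bin subtraction (Python 3.11.15) and the limma fit (R) were tested on simulated data. The annotation, gene family, sequence and correlation steps were not. Counting errors cover counting only.

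Alternatives covered the summary, scaling, GC correction, filters, pseudocount, single times and genotypes left out. All 22 ends were given; those with the 3 highest and 3 lowest mean changes were named with all libraries, VII left and the single bins were added after their values were seen, and genes were those of fixed family lists. The members, tests and lists were chosen with earlier results of these data known. All 12 per-sample columns were used.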

Additional observations from a re-analysis of the deposited data

Results flagged for a closer look

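In 8 results both aged libraries of one genotype lay above log phase and both of another below it; none of these differences between genotypes was tested, since each rests on 2 aged libraries and 1 log phase library for each genotype. For the Y′ bins, the mean log2 change of spt3 minus that of the wild type was -0.8696, with -0.47 in spt3 and 0.40 in the wild type. At V right, rad52 minus sac3 was 0.4614, with 0.14 in rad52 and -0.32 in sac3. For spt3 minus wild type the difference was -0.3971 at XV right, -0.3658 at VIII right, -0.3026 at II left and -0.1499 at XIV left. At XIII left, spt3 minus rad52 was -0.3358. For the change of the larger chromosomes minus the smallest, spt3 minus wild type was 0.1505, with 0.06 in spt3 and -0.09 in the wild type.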

How the results depend on the processing

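The change of all subtelomeric windows kept its direction and stayed above p = 0.05 under 15 alternatives, over -0.21 to -0.07, and the count of changed ends stayed at 0 under 14 (smallest adjusted exact p 0.0905 to 0.869). The outer minus inner change kept its direction, over -0.32 to -0.12, and passed without windows over 5% repeated (-0.25, exact permutation p = 0.0247). The difference between larger and smallest chromosomes turned to 0.0149 without windows over 5% repeated, 0.0060 without low windows (mean signal per kb under 0.8 of the nuclear median) and 0.0037 without wild type, and passed the exact test with means (-0.0608), full-length windows (-0.0479) and the GC correction (-0.0671). The unique outer change was above an exact permutation p of 0.05 with both ends (-0.31), without chromosome IV (-0.32), at 24 h only (-0.17), at 48 h only (-0.38), without wild type (-0.32), without spt3 (-0.23) and without rad52 (-0.31); the cause was not tested, except that a single time allows no p below 0.125. Windows called higher by limma numbered 17 and became 11 with the 24 h and 48 h libraries averaged, beside 373 of all 2423 nuclear windows. They were 0 at 24 h only, at 48 h only, without wild type (14 at an unadjusted p under 0.05) and without spt3 (13). Windows called lower numbered 9 and became 17 with the averages, beside 153 of all 2423, and 20 without sac3, beside 269. They were 0 at 24 h only, at 48 h only, without wild type (21 unadjusted) and without spt3 (7). The unadjusted counts have no background share.

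Of 306 values of single ends under alternatives, 17 reversed, at 6 ends. Without windows over 5% repeated the changes were 0.0374 at V right, 0.129 at XV right, 0.0663 at XVI left and 0.0287 at XVI right. At 24 h only they were 0.0112 at XIV left, 0.0016 at XV right and 0.0266 at XVI left. Without spt3 they were 0.0059 at XV right and 0.0063 at XVI left, without rad52 0.00068 at XVI left, and without sac3 0.0173 at V right, 0.0035 at XV right and 0.0195 at XVI left. V right gave 0.0548 without Ty or LTR and 0.0105 with full-length windows, XI left 0.0573 without low windows and XVI left 0.0047 with the GC correction. II left had no windows without Ty or LTR, and XIV right none without low windows. No paired analysis was possible over replicate numbers because each genotype and time had 1 library. Aged and log phase libraries were compared within genotype throughout. Depth limits a 5-kb bin to a counting error of up to 2.60%.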
